A study of Drosophila melanogaster with 3 samples.

Results

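The RR-type cuticle protein genes of Drosophila melanogaster were examined for E(z) peaks in whole prepupae. They were chosen by symbol among protein-coding genes of the Ensembl annotation, as those starting Cpr, Ccp84A, Lcp or Pcp together with Edg78E and Edg84A. The symbols of 96 genes matched, and Cpr itself, which encodes cytochrome P450 reductase, was left out. The set thus holds 95 of the 13945 protein-coding genes on the 6 chromosome arms, with 46 on 3L, 26 on 2R, 13 on 3R, 6 on 2L, 4 on X and 0 on the fourth chromosome.

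The insect cuticle is built from chitin fibres and structural proteins that epidermal cells secrete anew at each moult. Most of these proteins share the Rebers and Riddiford (RR) consensus, a stretch that binds chitin, and each stage and body region draws on its own selection of them. The genes are short, often lie in tandem clusters, and many are switched on and off within narrow windows set by pulses of the moulting hormone ecdysone. E(z) is the catalytic subunit of Polycomb repressive complex 2, which methylates histone H3 at lysine 27 and keeps developmental genes silent in cells where they are not needed.

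The data came from chromatin immunoprecipitation and sequencing of 3 biological replicates, which form 1 group. The animals were prepupae of unknown age, with males and females pooled, from a transgenic line that stably expresses E(z) carrying GFP at its C terminus. The sample description gives a precipitation with an antibody against GFP, whereas the antibody field names E(z). The material was whole animals, so a strong peak in few cells and a weak peak in many cells cannot be told apart.

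Each replicate had a list of 30000 peaks and background regions on the dm6 assembly, and a pooled list of the same length came from the replicates together. The list that passed the authors' reproducibility threshold, called optimal here, held 5623 peaks, which were the 5623 highest-ranked peaks of the pooled list. Peaks were ranked by the authors' signal value within a list, with rank 1 the strongest. Sequencing depth is unknown from these lists, so comparisons between replicates used ranks and lists of equal length. The summit is the position that the authors' offset marks inside a peak, and a gene was counted when a summit lay within 1 kb of one of its annotated transcription start sites (TSSs). There was no contrast between groups, so counts of cuticle protein genes stand beside the share of all protein-coding genes, and no test was run.

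The RR consensus was present in most of the proteins. A core of the RR consensus, written as G, 6 residues, Y or F, 1 residue, A, 2 to 4 residues, then G and Y or F, was present in the annotated proteins of 88 of the 95 genes (92.6%), against 134 of all 13945 genes (0.961%). The 7 genes without this core were Cpr30F, Cpr47Eg, Cpr49Ac, Cpr51A, Cpr57A, Cpr62Ba and Ccp84Af. Cytochrome P450 reductase lacked it too. The cuticle proteins had a median length of 162 residues, against 392 residues over all proteins, and their genes had a median length of 875 bp, against 2166 bp over all genes.

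Few cuticle protein genes had an E(z) peak of the optimal list at their start. An optimal summit lay within 1 kb of a TSS of 5 of the 95 genes (5.26%, exact Clopper-Pearson 95% interval 1.73 to 11.9%, counting error only), against 16.1% of all protein-coding genes. These 5 were Cpr72Eb, Cpr62Ba, Cpr47Ec, Cpr73D and Edg84A. Within 250 bp the count was 0 of 95 cuticle protein genes, which allows a share of up to 3.16% by the limit of 3 counts (upper end of the exact 95% interval 3.81%), against 10.4% of all genes. Within 500 bp it was 1 gene, Cpr72Eb (1.05%), against 13.4% of all genes.

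The 5 summits lay at 5 different places and none was at a core promoter. That of Cpr72Eb was 496 bp upstream of the start. That of Cpr62Ba was in an intron of the gene, 790 bp upstream of an internal start. The Edg84A summit lay 889 bp upstream, in the interval between genes. The Cpr47Ec summit was 862 bp downstream of the start, inside an exon at the far end of this 871 bp gene. The Cpr73D summit was 731 bp downstream, in an intron of Cpr73D and within the body of a neighbouring gene, and its nearest TSS belonged to Ogdh, a gene for a subunit of the 2-oxoglutarate dehydrogenase complex, whose start lay 481 bp away. The Cpr72Eb peak was 217 bp wide and the others were each 424 bp, the median width of the optimal list.

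Cpr72Eb held the strongest of these peaks. It encodes a protein of the Cpr family and lies in a tight group with Cpr72Ea and Cpr72Ec on 3L. Its peak, at 3L 16364243 to 16364459, was at rank 823 of the optimal list and at ranks 616, 1080 and 957 of replicates 1, 2 and 3 (mean 884 ± 240, SD, n = 3). All 3 replicates placed it well inside their 5623 strongest peaks.

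The Cpr62Ba peak, at 3L 1829520 to 1829943, had rank 2389 in the optimal list. Its ranks in the replicates were 2630, 3519 and 1895 (mean 2681 ± 813, SD, n = 3). Cpr62Ba is the longest gene of its cluster and 1 of the 7 whose annotated protein lacks the RR core.

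The Edg84A region held a pair of optimal summits. Edg84A is an ecdysone-dependent gene for a pupal cuticle protein, known as a target of the nuclear receptor Ftz-F1 in prepupae. The nearer summit, in the peak at 3R 6683344 to 6683767, had rank 4636, and the farther summit, 1097 bp upstream in the peak at 3R 6683136 to 6683559, had rank 1823. The farther one was the stronger in each replicate, since the best replicate summits lay 1063, 1049 and 1108 bp upstream at ranks 3375, 1649 and 817 (mean rank 1947 ± 1305, SD, n = 3). The replicate summits inside 1 kb lay 864, 848 and 903 bp upstream at ranks 6613, 26976 and 4793 (mean rank 12794 ± 12316, SD, n = 3). The strongest replicate summits at Edg84A thus lay just outside the 1 kb limit in all 3 replicates, and the inner ones differed widely in rank. The 2 optimal peaks overlap. The nearer optimal summit lay inside replicate peaks at ranks 3375, 1649 and 4793 (mean rank 3272 ± 1575, SD, n = 3). In replicates 1 and 2 these were the peaks of the farther summit.

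Windows of 201 bases centred on the summits of Cpr72Eb, Cpr62Ba and Edg84A are shown because these are the peaks upstream of starts whose nearest TSS is that of the cuticle protein gene. They are on the plus strand, from the RefSeq copy of genome release 6 (dm6), at chr3L:16364303-16364503, chr3L:1829632-1829832 and chr3R:6683456-6683656. Capitals mark GAGAG, a word bound by the GAGA factor, and GCCAT, a word bound by Pho, on either strand.
Cpr72Eb summit: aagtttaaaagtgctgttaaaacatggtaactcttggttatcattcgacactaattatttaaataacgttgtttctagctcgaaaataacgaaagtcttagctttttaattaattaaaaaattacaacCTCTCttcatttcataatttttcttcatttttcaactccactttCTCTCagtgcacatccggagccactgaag
Cpr62Ba summit: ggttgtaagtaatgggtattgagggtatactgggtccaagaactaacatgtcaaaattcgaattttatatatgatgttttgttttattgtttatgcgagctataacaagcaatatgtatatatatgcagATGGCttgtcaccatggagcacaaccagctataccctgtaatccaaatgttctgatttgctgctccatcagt
Edg84A summit: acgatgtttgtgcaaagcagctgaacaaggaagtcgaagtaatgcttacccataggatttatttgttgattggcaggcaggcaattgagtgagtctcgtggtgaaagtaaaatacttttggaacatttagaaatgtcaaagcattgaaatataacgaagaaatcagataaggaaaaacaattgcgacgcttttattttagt

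The GAGA factor and Pho are proteins known to bind Polycomb response elements in flies. GAGAG on either strand was in 2 of the 5 windows at cuticle protein genes, against 28.2% of all 5623 optimal summit windows of the same length. GCCAT was in 1 of the 5 windows, against 26.7% of all optimal windows. The Cpr72Eb window held GAGAG at 2 places, the Cpr62Ba window held GCCAT once, and the Edg84A window held neither word. A match of letters is a description and not a bound site.

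Cpr47Ec and Cpr73D completed the 5 genes. The Cpr47Ec peak, at 2R 11258902 to 11259325, had rank 3669 in the optimal list and ranks 4477, 4344 and 3572 in the replicates (mean 4131 ± 489, SD, n = 3). The best summits within 1 kb of a Cpr73D start had ranks 3593, 3532 and 7017 (mean 4714 ± 1995, SD, n = 3). The optimal Cpr73D summit, in the peak at 3L 16956746 to 16957169, lay inside peaks of replicates 1 and 2, and replicate 3 had no peak over it.

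**Figure D1:**
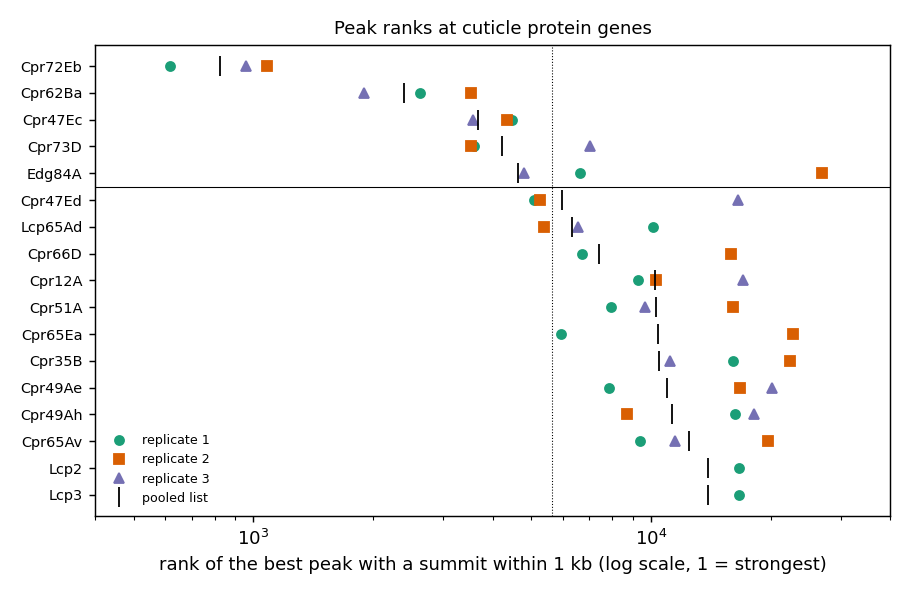
Rank of the best peak with a summit within 1 kb of a TSS (x axis, log scale, 1 is the strongest) for the 5 cuticle protein genes with an optimal summit, above the line, and the 12 best-ranked of the others, below it. Coloured points are the 3 replicates, black bars the pooled list, and the dotted line marks rank 5623. Cpr72Eb sits at ranks 616 to 1080, and below the line only Cpr47Ed and Lcp65Ad have replicate points left of the dotted line.

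Another 4 genes had their nearest optimal summit between 1 and 2 kb from a TSS. Cpr72Ea had a summit 1207 bp upstream at rank 1331, with replicate ranks 1171, 1284 and 2069 (mean 1508 ± 489, SD, n = 3), so both Cpr72Ea and Cpr72Eb had a strong optimal summit upstream. Cpr76Ba had a summit beyond its far end, 1602 bp downstream of its start, at rank 3083, with replicate ranks 3601, 2718 and 3910. Cpr97Ea had one inside the gene 1825 bp downstream of a start at rank 4041, with replicate ranks 3321, 6336 and 4394. Cpr97Eb had one 1310 bp upstream at rank 4703, whose nearest TSS was that of CG14258 at 703 bp. With these, 9 of 95 cuticle protein genes (9.47%) had an optimal summit within 2 kb, against 20.7% of all genes.

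Farther from the start the shares of cuticle protein genes and all genes came together and then crossed. An optimal summit lay within 5 kb of 27 cuticle protein genes (28.4%, exact 95% interval 19.6 to 38.6%), against 32% of all genes, and within 10 kb of 44 (46.3%), against 47.5% of all genes. At 22344 bp, the plotted distance where their lead was widest, the share was 83.2% of cuticle protein genes, against 71.8% of all genes. Clustered genes can share a nearest summit, so they are not independent counts. Within 50 kb the count was 85 of 95 (89.5%), against 89.2% of all genes. Between 2 and 5 kb lay the nearest summits of 18 cuticle protein genes (18.9%), against 11.3% of all genes. Among these 18 were Pcp, the pupal cuticle protein gene nested in an intron of Gart, with a summit 2470 bp away, and Ccp84Ag with one 3172 bp away. The median distance was 11616 bp for cuticle protein genes and 10893 bp for all genes, and the middle 50% of distances ran from 4115 to 19288 bp for cuticle protein genes and from 3079 to 25161 bp for all genes. When each replicate's 5623 strongest peaks were used, the medians were 13001, 10794 and 12073 bp for cuticle protein genes (mean 11956 ± 1108, SD, n = 3), against 9851, 10146 and 8825 bp for all genes. The medians of the cuticle protein genes were the longer ones in each replicate. Among genes under 2 kb with 1 TSS the order for optimal summits was the reverse. The median was 10447 bp for 75 cuticle protein genes, against 13164 bp for all 5787 such genes.

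**Figure D2:**
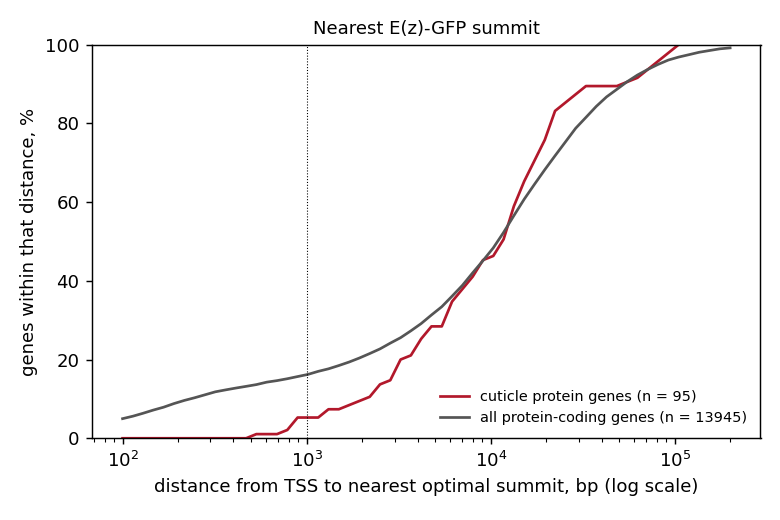
Cumulative share of genes (y axis, %) by distance from a TSS to the nearest optimal summit (x axis, bp, log scale) for the 95 cuticle protein genes in red and all 13945 protein-coding genes in grey; the dotted line is 1 kb. The red curve starts near 500 bp and runs below the grey one at short distances, 5.26% against 16.1% at 1 kb. The curves are close at 10 kb, 46.3% against 47.5%. The red one is below at 11735 bp, 50.5% against 52.3%. It runs above from 13348 bp until they meet again near 50 kb. Its lead is widest at 22344 bp, 83.2% against 71.8%.

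The replicates taken singly gave the same picture of few summits at starts. Among the 5623 strongest peaks of replicates 1, 2 and 3, summits lay within 1 kb of 5, 6 and 4 of the 95 cuticle protein genes, against 16.6, 16.9 and 19.7% of all genes. The mean share was 5.26 ± 1.05% for cuticle protein genes and 17.7 ± 1.71% for all genes (SD, n = 3 each), and the difference, cuticle protein genes minus all genes, was -12.5 ± 2.63 percentage points. The 2 sets of replicate values did not overlap. Each replicate counted the same genes, so the spread between replicates leaves out the counting error of shares that rest on 4 to 6 genes. Cpr72Eb, Cpr62Ba and Cpr47Ec were counted in all 3 replicates, Cpr73D and Cpr47Ed in replicates 1 and 2, Lcp65Ad in replicate 2 and Edg84A in replicate 3. The other 88 cuticle protein genes were counted in none. Among the 2811 strongest peaks the counts were 2, 1 and 2, with Cpr72Eb in each and Cpr62Ba in replicates 1 and 3, against 10.3, 10.6 and 11.3% of all genes. Among the 11246 strongest they were 13, 8 and 9, against 24.8, 24.3 and 29.7% of all genes.

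In the full pooled list the share of cuticle protein genes was close to that of all genes. A summit of the pooled list lay within 1 kb of 34 of them (35.8%, exact 95% interval 26.2 to 46.3%), against 35.2% of all genes. Within 500 bp the pooled list counted 23 (24.2%), against 29.6% of all genes, and within 5 kb it counted 70 (73.7%), against 60.3% of all genes. For 29 of the 34 the summit was not in the optimal list, and these 29 genes had 28 distinct summits, with the authors' -log10 q-values from 0.188 to 2.71 and a median of 0.572. The optimal peaks had -log10 q-values from 2.87 to 3.97. The best summit was upstream of the start for 20 of the 34 genes and at it or downstream for 14, and for 14 it lay within 250 bp.

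The 29 genes were spread over the rest of the pooled list. The best summit was among ranks 5624 to 11246 for 8 cuticle protein genes (8.42%), against 7.5% of all genes, and among ranks 11247 to 16869 for another 8 (8.42%), against 4.35% of all genes. For 13 cuticle protein genes (13.7%) it was among ranks 16870 to 30000, against 7.23% of all genes. Among genes with a pooled summit, the median best rank was 14580 for cuticle protein genes and 6434 for all genes.

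The shares of cuticle protein genes in the full replicate lists were lower than those of all genes, but within counting error. All 30000 peaks of each replicate put a summit within 1 kb of 32 cuticle protein genes (33.7%) in each of replicates 1, 2 and 3, against 37.3, 38.2 and 43.7% of all genes. The exact 95% interval of 33.7%, 24.3 to 44.1%, holds each of these shares of all genes. The difference, cuticle protein genes minus all genes, was -6.07 ± 3.46 percentage points (SD, n = 3). Although the number was the same in each replicate, 17 genes were counted in all 3 (17.9% of the set, against 25.9% of all genes). At least 1 replicate counted 49 cuticle protein genes and none counted 46 of them.

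**Figure D3:**
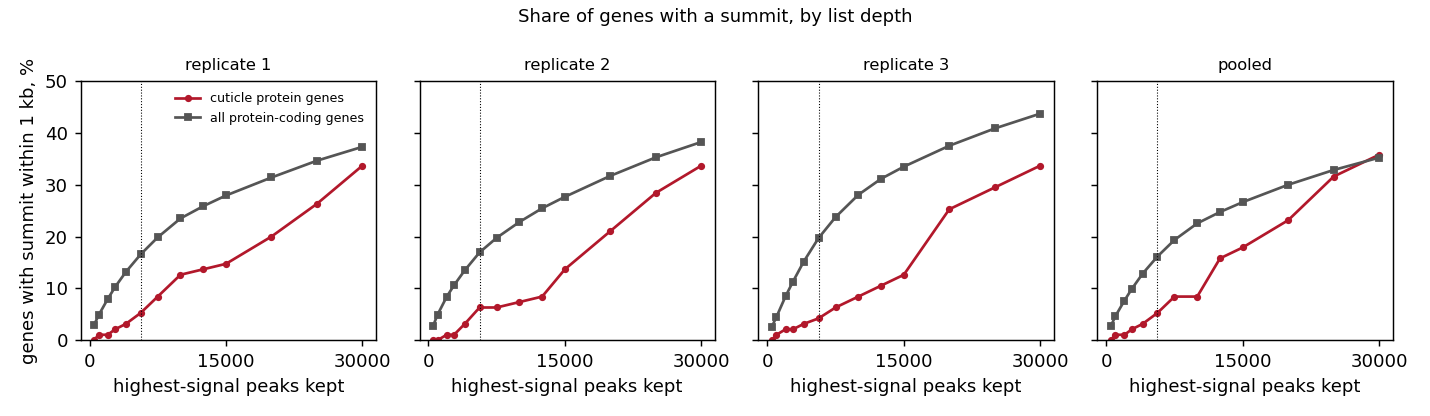
Share of genes with a summit within 1 kb of a TSS (y axis, %) against the number of highest-signal peaks kept (x axis), for replicates 1, 2 and 3 and the pooled list, with cuticle protein genes in red and all protein-coding genes in grey. The dotted line marks 5623 peaks, where the pooled shares are 5.26% and 16.1%; at 30000 peaks they are 35.8% and 35.2%, while in the replicates the red line ends at 33.7% and below the grey line.

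Of the 12 best-ranked genes outside the optimal list, Cpr47Ed came closest to it. Its summit lay 832 bp upstream at pooled rank 5956 with a -log10 q-value of 2.71, and its replicate ranks were 5074, 5248 and 16533, high in replicates 1 and 2 and low in replicate 3. Lcp65Ad, a larval cuticle protein gene of the 65A cluster, had a summit 304 bp downstream at pooled rank 6346 and replicate ranks 10096, 5384 and 6535. Cpr66D followed at pooled rank 7403, with a summit within 1 kb in replicates 1 and 2 at ranks 6724 and 15914. In replicate 3 its pooled summit lay inside a peak at rank 6233 whose own summit was beyond 1 kb. None of these 3 genes kept rank 5623 or better in all 3 replicates.

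The other 9 were weaker. Cpr12A, Cpr51A, Cpr65Ea, Cpr35B and Cpr49Ae had pooled ranks of 10238, 10310, 10420, 10456 and 10996, and Cpr49Ah and Cpr65Av had 11272 and 12478. Lcp2 and Lcp3, genes for proteins of the larval cuticle that lie head to head, shared 1 summit at pooled rank 13889 and are not independent counts. It lay 349 bp upstream of a Lcp2 start and 176 bp upstream of a Lcp3 start, and only replicate 1 had a summit there, at rank 16625. Edg78E, not among these 9 and like Edg84A an ecdysone-dependent pupal cuticle gene, had a summit 111 bp downstream of its start at pooled rank 26220. Its replicate ranks were 26503 and 15551 in replicates 2 and 3, with none in replicate 1.

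Upstream sequences of Edg84A, Cpr72Eb, Edg78E and Ccp84Aa are shown as a pair of genes with an optimal summit within 1 kb and a pair without. Each is the 200 bases before the annotated start on the gene's strand, from the RefSeq copy of genome release 6 (dm6), at chr3R:6684245-6684444 (plus), chr3L:16364699-16364898 (plus), chr3L:21297804-21298003 (minus) and chr3R:6703884-6704083 (plus). Capitals mark TATAAA, the TATA box word, and CAAGGNC, the core of the site that Ftz-F1 is known to bind, on either strand.
Edg84A upstream: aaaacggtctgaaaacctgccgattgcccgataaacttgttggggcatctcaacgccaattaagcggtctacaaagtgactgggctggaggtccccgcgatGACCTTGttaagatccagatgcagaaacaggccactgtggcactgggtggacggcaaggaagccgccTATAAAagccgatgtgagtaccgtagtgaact
Cpr72Eb upstream: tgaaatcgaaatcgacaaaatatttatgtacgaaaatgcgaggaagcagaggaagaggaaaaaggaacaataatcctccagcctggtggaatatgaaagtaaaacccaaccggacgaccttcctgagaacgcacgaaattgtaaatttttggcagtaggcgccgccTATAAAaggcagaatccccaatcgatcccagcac
Edg78E upstream: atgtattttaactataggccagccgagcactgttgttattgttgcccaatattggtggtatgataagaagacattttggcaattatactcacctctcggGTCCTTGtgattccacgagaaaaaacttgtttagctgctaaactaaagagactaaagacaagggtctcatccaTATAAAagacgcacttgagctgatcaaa
Ccp84Aa upstream: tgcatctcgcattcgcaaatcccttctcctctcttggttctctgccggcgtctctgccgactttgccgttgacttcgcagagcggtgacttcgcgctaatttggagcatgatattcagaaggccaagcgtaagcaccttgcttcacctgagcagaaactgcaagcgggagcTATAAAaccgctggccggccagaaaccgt

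A TATA box close to the start was common in the cuticle protein genes. TATAAA on the gene strand, with its first base 20 to 40 bases before the annotated start, was present in 53 of 95 genes (55.8%), against 7.79% of all genes. In the 4 sequences shown it began 32 bases before the start of Edg84A, 34 before Cpr72Eb, 28 before Edg78E and 29 before Ccp84Aa. In the wider window of 250 bases before to 50 after the start, TATAAA on either strand was in 70 cuticle protein genes (73.7%), against 45.8% of all genes. GAGAG was in 30 (31.6%), against 29.7% of all genes, and GCCAT in 50 (52.6%), against 41.2% of all genes. CAAGGNC was in 5 (5.26%), against 5.69% of all genes. The 5 with CAAGGNC, named after their sequences were read, were Cpr47Ec, Cpr65Ay, Edg78E, Edg84A and Cpr5C, and the word began 99 bases before the start in Edg84A and 101 bases before it in Edg78E.

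Genes built like the cuticle protein genes also had few optimal summits at their starts. Of the cuticle protein genes 75 were under 2 kb long with 1 TSS, and 3 of these (4%) had an optimal summit within 1 kb, against 6.81% of the 5787 genes of that build. Of the 53 with the TATA box, 2 (3.77%) had one, against 7.64% of all 1087 genes with it. With short length, 1 TSS and the TATA box required together, the count was 2 of 47 cuticle protein genes (4.26%), against 4.48% of all 737 such genes, which include those 47. The share of cuticle protein genes was near that of this last class, but it rests on 2 of 47 genes and no interval was computed. Among the strongest peaks of replicate 2 it was 3 of 47 (6.38%), so counts this small cannot tell 4.48% from 6.81 or 7.64%. Within 250 bp, 0 of the 75 short cuticle protein genes with 1 TSS had an optimal summit, against 4.15% of all 5787. Of the 47 that also had the TATA box 0 had one, against 2.17% of all 737. Within 1 kb, when all genes were taken, the share of cuticle protein genes was 5.26% against 16.1%. Whether gene build accounts for that difference was not tested.

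For the short genes and for the short genes with the TATA box, the replicates were also counted singly. For short genes with 1 TSS, the 5623 strongest peaks of replicates 1, 2 and 3 gave 3, 4 and 3 of 75 cuticle protein genes, against 8.09, 7.45 and 8.23% of all 5787. Their full lists gave 21, 22 and 22 of 75 (28, 29.3 and 29.3%), against 24.5, 24.7 and 28.1% of all 5787. The pooled list gave 22 of 75 (29.3%), against 22.1% of all 5787. For genes with the TATA box of any length, it gave 19 of 53 (35.8%), against 26.7% of all 1087. Among short genes with 1 TSS and the TATA box, the 5623 strongest peaks of replicates 1, 2 and 3 gave 2, 3 and 2 of 47 cuticle protein genes, against 4.61, 4.48 and 4.61% of all 737. The mean was 4.96 ± 1.23% for cuticle protein genes and 4.57 ± 0.0783% for the class (SD, n = 3 each), a difference smaller than the spread of the cuticle protein genes between replicates. In the pooled list 16 of the 47 (34%) had a summit within 1 kb, against 19.8% of the 737. In the full replicate lists the counts were 11, 13 and 14 of 47, against 22.1, 24 and 22% of the 737 (mean 27 ± 3.25% for cuticle protein genes and 22.7 ± 1.14% for the class, SD, n = 3 each). The classes were chosen after the counts were known.

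**Figure D4:**
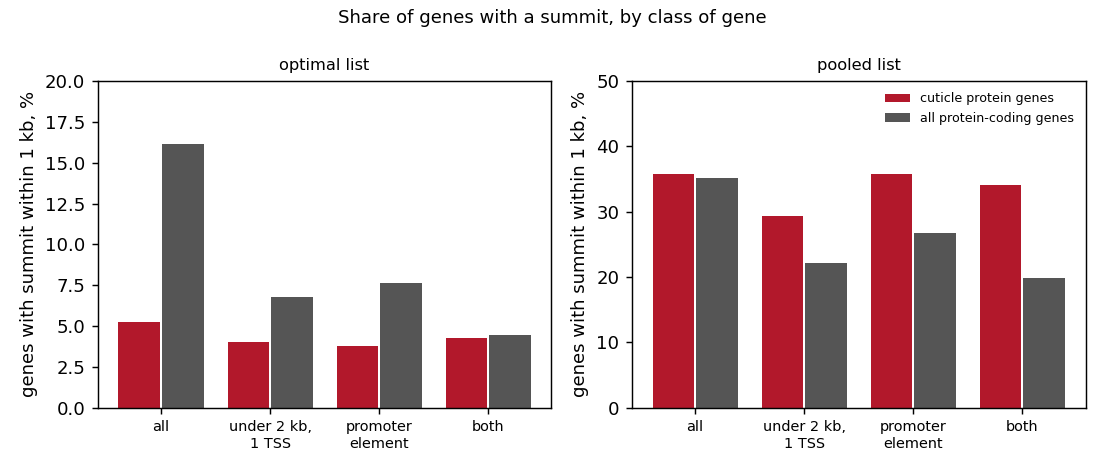
Share of genes with a summit within 1 kb of a TSS (y axis, %) in the optimal list (left) and the pooled list (right), for all genes, genes under 2 kb with 1 TSS, genes with the TATA box word 20 to 40 bases before the start (promoter element) and genes with both. Red bars are cuticle protein genes and grey bars all protein-coding genes; on the left the bars are 5.26% and 16.1% for all genes and 4.26% and 4.48% for genes with both, and on the right 34% and 19.8% for genes with both.

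Most cuticle protein genes lie in clusters, and these clusters held few optimal E(z) summits. Runs of at least 3 of these genes with gaps of at most 20 kb formed 12 clusters that hold 68 of the 95 genes in 199 kb. The clusters held 5 optimal summits, or 25.1 per Mb (exact Poisson 95% interval 8.15 to 58.6, counting error only), against 41.6 per Mb on the chromosome arms they lie on, which is inside that interval. The count was 3 without replicate 1 or without replicate 2, in shorter lists of 3550 and 3473 peaks. The 5623 strongest peaks of the replicates put 5, 6 and 4 summits inside, or 25.1, 30.1 and 20.1 per Mb (mean 25.1 ± 5.02, SD, n = 3), against 42, 41.1 and 42 per Mb on the arms. In 20 kb on each side of the clusters the density of optimal summits was 37.5 per Mb, with 18 summits in 480 kb. In the pooled list, with its weak peaks, the clusters held 47 summits, or 236 per Mb, against 222 per Mb on the arms.

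The 5 optimal summits inside lay in 5 clusters, and 7 clusters held 0. The summits of Cpr72Eb, Cpr62Ba and Cpr47Ec were 3 of them. In the 65E cluster, from Cpr65Ea to Cpr65Ec, the summit at rank 3471 lay between genes, 2173 bp upstream of Cpr65Eb, with replicate ranks 3137, 3977 and 8152. In the large 65A cluster, from Lcp65Ag3 to Cpr65Az, the summit at rank 4506 lay between genes, and its nearest TSS was that of CG13297 at 2059 bp. Its replicate ranks were 9497, 6260 and 1861, strong in replicate 3 and outside the 5623 strongest peaks of replicates 1 and 2.

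The clusters differed in how far they lay from any optimal summit. The 65A cluster has 17 cuticle protein genes in 31.2 kb, the most of any cluster, and had that 1 optimal summit and 7 pooled ones. The 49A cluster, from Cpr49Aa to Cpr49Ah, has 8 in 38.5 kb and had 0 optimal summits within 20 kb of its ends. Its genes lay 62037 to 99373 bp from the nearest one, with Cpr49Aa the farthest of all 95, while 7 pooled summits lay inside the cluster. The Lcp1 to Lcp4 cluster, which encodes larval cuticle proteins, likewise had 0 within 20 kb of its ends, and its genes lay 24978 to 31382 bp from the nearest. In the clusters from Cpr64Aa to Cpr64Ad and from Cpr67Fa1 to Cpr67Fb, 0 pooled summits lay inside.

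Edges within 5 kb added 5 optimal summits. The strongest, at rank 69, lay 3394 bp beyond the cluster from Cpr78Ca to Cpr78Cc and 93 bp downstream of the start of CG11309, at ranks 63, 103 and 56 in the replicates (mean 74 ± 25.4, SD, n = 3). That summit stood at the start of a neighbouring gene that is not a cuticle protein gene. The others were the summits described above for Cpr72Ea, Cpr76Ba and, as a pair, Edg84A. Counted with these edges, 4 clusters had no optimal summit.

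**Figure D5:**
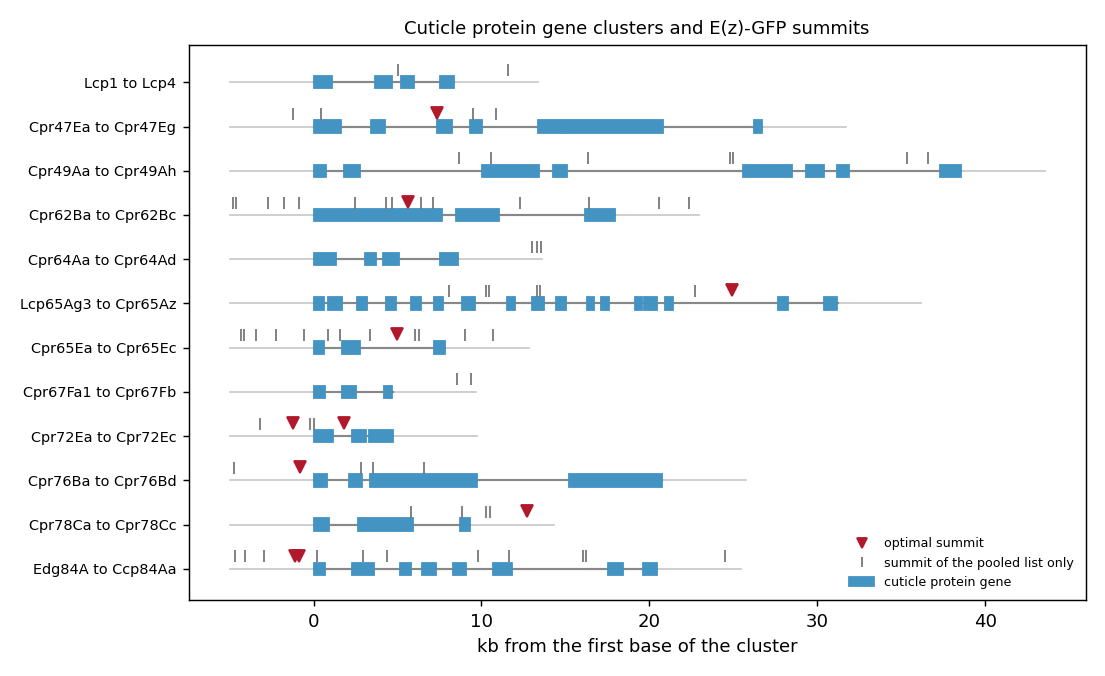
The 12 cuticle protein gene clusters, each named by its first and last gene and drawn in kb from its first base, with 5 kb on each side in light grey. Blue boxes are cuticle protein genes, red triangles optimal summits and grey ticks summits of the pooled list only; 5 triangles lie inside clusters and 5 at their edges, with a pair left of Edg84A.

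The 84A cluster stands within the Antennapedia complex of Hox genes, which are classic Polycomb targets. Its 8 cuticle protein genes, from Edg84A to Ccp84Aa, span 20.5 kb between labial (lab), whose start lies 5.85 kb before the cluster, and proboscipedia (pb), whose 3' end lies 2.9 kb after it. Both Hox genes had optimal summits at their starts, lab at 106 bp with rank 553 and pb at 106 bp with rank 918 and at 93 bp with rank 3926. Between them, 0 optimal summits lay inside the cuticle cluster, where the pooled list held 7, the best at rank 14761. The pair upstream of Edg84A lay in the interval between lab and the cluster, 4966 and 4758 bp from the start of lab. Across the cluster the distance to the nearest optimal summit ranged from 889 bp at Edg84A to 20528 bp at Ccp84Aa.

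Summits were present at clustered and at scattered cuticle protein genes. An optimal summit within 1 kb was present for 4 of the 68 clustered genes and 1 of the 27 others, against 16.1% of all genes. The pooled list gave 24 of 68 (35.3%) and 10 of 27 (37%), both near the 35.2% of all genes. The median distance to the nearest optimal summit was 8971 bp for clustered genes and 14743 bp for the others, against 10893 bp for all genes.

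Other genes that build or regulate the cuticle were counted in the same lists for comparison. These sets of genes were chosen with earlier results of these data known. The Tweedle genes, which encode a separate family of cuticle structural proteins, had an optimal summit within 1 kb at 0 of 25, which allows a share of up to 12%, against 16.1% of all genes. A pooled summit was present at 2 of them (8%), against 35.2% of all genes. Of 16 genes for chitin synthesis, assembly and deacetylation, 15 had a pooled summit within 1 kb, against 35.2% of all genes. An optimal summit was present at 5 (31.25%), against 16.1% of all genes. They included exp and reb, which promote chitin deposition, mmy, which makes the sugar nucleotide used by chitin synthase, and Cda4, a chitin deacetylase gene, at ranks 2647, 3904, 4870 and 4770, while Cda5 and Cda9 had none. Of 16 chitinase and imaginal disc growth factor genes, 13 (81.25%) had a pooled summit, against 35.2% of all genes. An optimal summit was present at 4 (25%), against 16.1% of all genes. The 4 were Cht7 at rank 882, Cht11 at 1418, Idgf2 at 3436 and Cht2 at 4400. Cht10 and Cht12 were among those without an optimal summit.

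Among 11 cuticle tanning genes, 7 (63.6%) had a pooled summit within 1 kb, against 35.2% of all genes. An optimal summit was present at 1 (9.09%), against 16.1% of all genes. That gene was speck, which encodes an arylalkylamine N-acetyltransferase, at rank 2769. AANATL2 and amd were among those without an optimal summit. All 15 regulators of the ecdysone cascade had a pooled summit within 1 kb, against 35.2% of all genes. An optimal summit was present at 12 of them (80%), against 16.1% of all genes. The strongest were at Eip75B, a nuclear receptor gene induced by ecdysone, with rank 731 and replicate ranks 637, 824 and 921, at Eip93F, a regulator of larval cell death, with rank 2322, and at the nuclear receptor genes Hr3 and ftz-f1, with ranks 2433 and 2470. The regulators crol and Hr4 had no optimal summit within 1 kb. The ftz-f1 summit lay 62 bp from a start, with replicate ranks 4092, 1994 and 2241 (mean 2776 ± 1147, SD, n = 3), whereas the summits at Edg84A lay 889 and 1097 bp from its start.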

How the data were processed

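E(z)-GFP chromatin immunoprecipitation was measured in 3 biological replicates of whole prepupae. The authors deposited dm6 and dm3 peak lists, and only dm6 lists were used. Each list gives, per the text deposited with the samples, a signal value, a -log10 q-value and a summit offset per peak. Per that text, replicate lists came from each replicate's alignment and 1 further file of unstated kind, and the optimal list from the replicate and pooled lists. The scaling of the deposited signal is not stated, so it served only to rank peaks within a list. For aligner and caller, a name is not given in the sources used here. All -log10 q-values, as the authors deposited them, were described only.

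The cuticle protein genes and all gene lists were chosen with earlier results of these data known. Gene models with their TSSs are those of Ensembl release 115 (BDGP6.54). Promoter and summit windows were cut, and coding regions translated, from the genome release 6 sequence that RefSeq distributes. A gene was counted with a summit within 1 kb of any TSS, and best ranks were taken there. Named genes were those with an optimal summit within 1 kb or at 1 to 2 kb, the 12 best-ranked others in the pooled list, cluster ends, the genes of the TSSs nearest to cluster summits, the gene farthest from a summit, and up to 4 genes with and 2 without a summit per other list. Pcp, Ccp84Ag, Edg78E, lab, pb and the genes named by protein core or promoter word were added after values were seen. In the other lists 4 symbols were matched through synonyms. Intervals are exact Clopper-Pearson at 95%, a count of 0 allows 3 counts, and depth is unknown. Counting was tested on simulated data with planted summits. Python 3.11.15, numpy 2.4.6, pandas 2.3.3, scipy 1.17.1 and matplotlib 3.10.9 were used. Alternatives were other distances, assignments, TSS sets, list depths, cluster rules and each replicate left out.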

Additional observations from a re-analysis of the deposited data

How the results depend on the processing

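The share of cuticle protein genes with an optimal summit within 1 kb, 5.26%, stayed below that of all genes under the 12 alternatives that keep all genes as the comparison. It was 1.05% at 500 bp and 28.4% at 5 kb. With replicate 1, 2 or 3 left out, no peaks were called anew, and the lists were shorter, with 3550, 3473 and 4080 peaks. The shares there were 4.21, 4.21 and 5.26%, against 11.7, 11 and 12% of all genes. All genes had 16.1% in the full optimal list, so the gap was narrower in the shorter lists. With Cpr and Edg91 added after seeing the data the share of cuticle protein genes was 5.15%. The pooled share, 35.8%, was 24.2% at 500 bp, 73.7% at 5 kb and 13.7% with the 11246 strongest peaks. It fell below that of all genes under 3 of 6 alternatives. The replicate mean, 5.26%, was 1.75% with the 2811 strongest peaks, 10.5% with 11246, 33.7% with all peaks, 0.702% at 500 bp and 27% at 5 kb, and 4.74 to 5.79% with 1 replicate left out. Summits inside clusters, 5, were 23 with 20 kb edges, 2 in the 2811 strongest optimal peaks, 3 among those in the strongest peaks of all 3 replicates, and 3 to 4 with 1 replicate left out, with 3 without replicate 1 and 3 without replicate 2. The median distance, 11616 bp, was 29263 bp with the 2811 strongest (17965 bp for all genes), 20528 bp with peaks in all 3 replicates (17021 bp for all genes), and 16013 to 20408 bp with 1 replicate left out (14114 to 15692 bp for all genes); shorter lists give longer distances by construction. No paired analysis was possible because there is 1 group and no test. Depth is unknown and limits what a missing peak can show.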

Other observations

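The RR core was also found in the annotated proteins of 46 genes outside the set. Of these, resilin, which encodes the elastic protein of flexible cuticle, and Acp65Aa, an adult cuticle protein gene that lies within the 65A cluster, had no optimal summit within 1 kb. Of the 46, 3 had one (6.52%), against 16.1% of all genes, namely sv at rank 3376, nvy at 3931 and Mic26-27 at 5605. The short core pattern does not make these cuticle protein genes.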
